A study of Mus musculus with 26 samples.

Results

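Plagl1, Zdbf2, Impact, Inpp5f, Rasgrf1, Slc38a4, Fkbp6, Trappc9, Peg13 and Cdh15 are 10 mouse genes that are imprinted, or contain an imprinted control region, outside the large imprinted clusters. They were picked by symbol from the 24409 genes in the expression table, for their known imprinting and not for any measured value. Earlier results of these data were known when they were picked. Trappc9 and Peg13 lie in one locus, since Peg13 is a single-exon gene within an intron of Trappc9, so the 10 genes represent 9 loci. The ES cells were male lines on the C57BL/6J background, grown from the inner cell mass of embryos recovered at E2.5 and kept in 2i/LIF medium for at most 15 passages. WT lines carried intact Zfp57. ZFP57 KO lines were zygotic homozygous mutants with coding exons 4 and 5 of Zfp57 disrupted, whose mothers could still supply ZFP57 to the egg. RNA-seq of total RNA depleted of ribosomal RNA covered 3 WT and 2 KO samples with paired reads of 150 bp, and ZFP57 ChIP-seq covered 3 WT and 2 KO samples with reads of 100 bp. A second ZFP57 peak list was named for C57BL/6J X 129aa hybrid ES cells. How that list was made is not given in the sources used here, and it was traced to no ZFP57 ChIP-seq sample, so it is not treated as an independent set of peaks. The other chromatin libraries of the 26 samples were not analysed here.

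Most imprinted genes are expressed from 1 parental copy because an imprinting control region (ICR) carries DNA methylation on the copy from the mother or the father only. ZFP57 is a KRAB zinc finger protein that binds the methylated hexanucleotide TGCCGC and recruits the co-repressor KAP1, which keeps DNA methylation and H3K9me3 in place while most of the early embryo genome is demethylated. Large clusters share 1 control region among many genes, whereas at a solitary locus the control region often coincides with a start of the gene itself.

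Before the values, the sequences that link these genes to ZFP57 are shown, because they carry the recognition motif inside the intervals bound in WT ES cells. Each is a stretch of the genome within the nearest ZFP57 peak, printed from the + strand of GRCm38 (mm10), and the capitals mark TGCCGC or its reverse complement GCGGCA. The sequences come from RefSeq's GRCm38 assembly, and windows were kept to at most 240 bases. Each window was placed to hold as many copies as possible with few bases of untranslated exon. The Inpp5f window shows 3 of the 4 copies in its peak, and the Peg13 window 3 of 5. The Impact peak is not shown.
Plagl1, chr10:13091025-13091215: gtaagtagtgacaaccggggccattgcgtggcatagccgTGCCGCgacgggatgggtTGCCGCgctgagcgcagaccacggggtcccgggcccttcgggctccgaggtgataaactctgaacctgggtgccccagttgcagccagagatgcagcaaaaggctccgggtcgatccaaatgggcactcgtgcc
Inpp5f, chr7:128687957-128688196: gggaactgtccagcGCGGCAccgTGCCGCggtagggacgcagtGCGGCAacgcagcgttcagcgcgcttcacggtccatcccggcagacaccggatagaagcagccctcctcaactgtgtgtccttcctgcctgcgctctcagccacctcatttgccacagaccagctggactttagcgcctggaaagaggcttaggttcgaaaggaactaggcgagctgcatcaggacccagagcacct
Rasgrf1, chr9:89879667-89879906: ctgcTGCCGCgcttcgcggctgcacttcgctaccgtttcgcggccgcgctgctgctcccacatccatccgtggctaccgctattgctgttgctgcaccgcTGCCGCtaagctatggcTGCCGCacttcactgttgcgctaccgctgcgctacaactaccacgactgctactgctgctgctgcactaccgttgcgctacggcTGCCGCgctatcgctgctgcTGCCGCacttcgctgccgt
Fkbp6, chr5:135349892-135349999: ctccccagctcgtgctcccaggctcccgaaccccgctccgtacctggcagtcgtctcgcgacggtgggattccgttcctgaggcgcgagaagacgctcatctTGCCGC
Peg13, chr15:72809825-72810064: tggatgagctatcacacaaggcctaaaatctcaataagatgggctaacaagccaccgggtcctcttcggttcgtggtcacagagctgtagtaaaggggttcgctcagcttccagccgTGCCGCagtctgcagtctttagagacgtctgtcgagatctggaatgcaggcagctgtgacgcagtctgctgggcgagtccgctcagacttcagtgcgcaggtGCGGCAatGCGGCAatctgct
Cdh15, chr8:122865128-122865367: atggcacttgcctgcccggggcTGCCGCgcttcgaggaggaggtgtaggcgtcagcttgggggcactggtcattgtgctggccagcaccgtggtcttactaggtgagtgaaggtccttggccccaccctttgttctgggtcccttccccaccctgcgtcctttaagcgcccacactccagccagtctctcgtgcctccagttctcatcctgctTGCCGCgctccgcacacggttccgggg

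A ZFP57 peak lay within 20 kb of 7 of the 10 genes, against 4.17% of the 24288 genes that could be placed on the genome. All 7 peaks overlapped the gene itself, and Trappc9 and Peg13 shared 1, so there were 6 distinct peaks. The genes were chosen as imprinted and ZFP57 is known to bind control regions, so this count is a description and carries no test. Peaks were listed where at least 2 WT replicates had them, without a score, so neither their height nor the loss of binding in KO cells can be given, and binding below the threshold of the list cannot be seen. The 3 genes outside the limit were Rasgrf1 at 29853 bp, Slc38a4 at 410855 bp and Zdbf2 at 935744 bp from the nearest peak. For the 7 genes inside it the distance was 0 bp.

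Where the peak lay relative to the starts of the gene differed between loci. It was within 1 kb of a curated RefSeq start in 5 of the 10 genes, against 0.14% of all placed genes. At Plagl1 (chromosome 10, 13090832 to 13131694, + strand) the peak at chr10:13090757-13091215 covered the only curated start, and also the start of Hymai, a noncoding RNA transcribed in the same direction. At Fkbp6 (chromosome 5, 135291704 to 135350044, - strand) the peak at chr5:135349786-135350205 covered both starts, which are 131 bp apart. At Peg13 (chromosome 15, 72805602 to 72810324, - strand) the peak at chr15:72809683-72810328 covered the start. The same interval lay in an intron of Trappc9 (chromosome 15, 72589620 to 73061204, - strand), 245484 bp from the nearer of its 2 starts.

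In the Impact and Inpp5f genes the peak lay in an intron, upstream of an internal start. At Impact (chromosome 18, 12971923 to 12992950, + strand) it was at chr18:12973047-12973753, between 2 starts that are 2537 bp apart and 707 bp before the second. Inpp5f (chromosome 7, 128611365 to 128696436, + strand) has a long and a short transcript, and the peak at chr7:128687957-128688345 lay 525 bp before the start of the short transcript at 128688870. The long Inpp5f transcript starts 77505 bp further upstream, and the short one is the form known to be imprinted.

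Cdh15 (chromosome 8, 122848374 to 122867397, + strand) differed in having its peak over late exons. The interval at chr8:122864972-122865688 ran across exons 11 to 13 of 14, in coding sequence, 16598 bp from the start. Rasgrf1 (chromosome 9, 89909775 to 90026979, + strand) had its peak upstream of the gene, at chr9:89879664-89879922, where the paternally methylated control region of this gene is known to lie. With the limit set at 50 kb, Rasgrf1 joined the count, which became 8 of 10 against 8.04% of placed genes. All 7 peaks within 50 kb also stood in the hybrid list, which held 52.2% of the 1423 peaks.

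**Figure D1:**
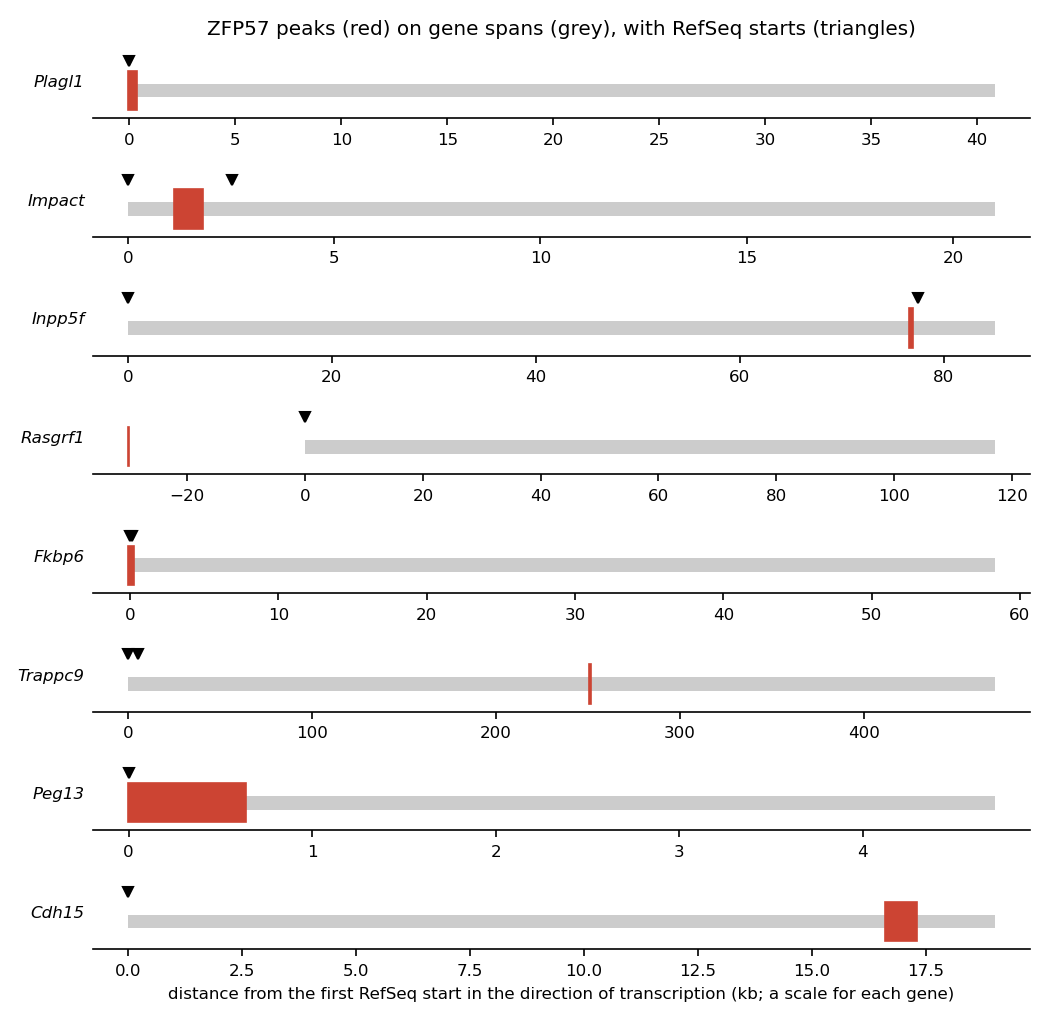
Position of the ZFP57 peak (red) on the span of the 8 genes with a peak within 50 kb (grey), in kb from the first RefSeq start in the direction of transcription, with curated starts as triangles and a separate scale for each gene. The peaks of Plagl1, Fkbp6 and Peg13 cover a start, those of Impact and Inpp5f precede an internal start, and the Rasgrf1 peak lies 29853 bp upstream.

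The recognition motif and CpG were counted in the peaks of these loci and in all peaks. The motif was searched as TGCCGC on both strands, where copies on opposite strands can share 2 bases and were each counted. All 9 distinct nearest peaks held at least 1 copy, against 92.0% of the 1423 peaks. Among the 6 peaks within 20 kb, 5 held at least 2 copies, against 23.6% of all peaks, and 3 held at least 3, against 6.75%. These counts are per peak and not scaled to width, and the 6 peaks were wider (median 552.5 bp, against 291 bp). The Trappc9/Peg13 and Rasgrf1 peaks held 5 copies each, the Impact and Inpp5f peaks 4 each, the Plagl1 and Cdh15 peaks 2 each, and the Fkbp6 peak 1. In the Rasgrf1 sequence above all 5 copies pointed in the direction of the gene. In the Plagl1 sequence the 2 copies started 18 bp apart. The single copy at Fkbp6 lay in the 5′ UTR, with 2 bases between it and the start codon.

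The 6 peaks had 5.16 to 9.80 CpG dinucleotides per 100 bp, and the Rasgrf1 peak had 10.8, whereas the median over all peaks was 3.49. Their median GC content was 61.4%, against 49.8%, and their median width 552.5 bp, against 291 bp. None of the 6 peaks contained a soft-masked (repeat) base, which held for 99 of the 1423 peaks, and the median peak was 72.0% soft-masked. The nearest peaks of Zdbf2, at chr1:64250319-64250498, and of Slc38a4, at chr15:96583743-96583968, were different. They held 1 copy each, had 2.22 and 3.98 CpG per 100 bp, and were 27.2% and 19.5% soft-masked, where the Rasgrf1 peak was 10.0% soft-masked. The Zdbf2 interval was not in the hybrid list.

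**Figure D2:**
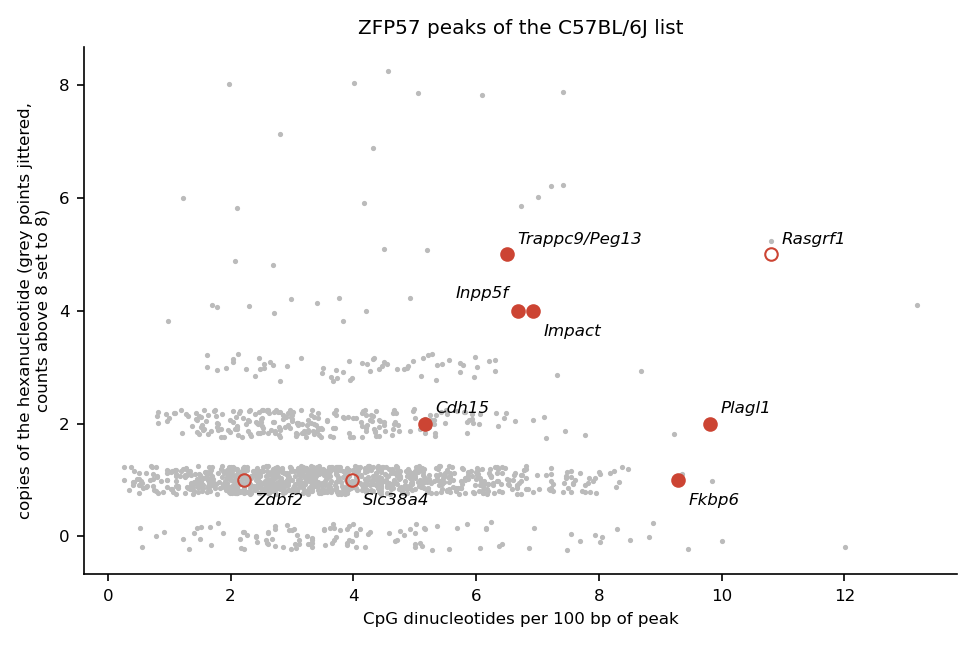
CpG dinucleotides per 100 bp (x axis) and copies of the hexanucleotide (y axis) in each of the 1423 ZFP57 peaks (grey, jittered, with the 6 peaks above 8 copies drawn at 8) and in the nearest peak of each gene (red, filled where within 20 kb of the gene, open where farther). The peaks of the bound loci sit to the right of the median of 3.49 CpG per 100 bp, and those nearest to Zdbf2 and Slc38a4 lie within the mass of all peaks.

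The promoter table of RefSeq (250 bases before to 50 after each start) matched 7 of the 10 genes, with 11 promoters. The hexanucleotide was in 4 of the 11, at Plagl1, Fkbp6 and Zdbf2, and in 11.6% of all 32851 promoters. The distal promoter of Zdbf2, for the transcript that begins 72911 bp upstream of the other, held 3 copies, and 1.53% of all promoters held at least 2. It is shown because it has the motif of the bound loci, while no peak was listed there. None of the 3 promoters of Slc38a4 had a copy.
Zdbf2 distal promoter, chr1:63200108-63200357: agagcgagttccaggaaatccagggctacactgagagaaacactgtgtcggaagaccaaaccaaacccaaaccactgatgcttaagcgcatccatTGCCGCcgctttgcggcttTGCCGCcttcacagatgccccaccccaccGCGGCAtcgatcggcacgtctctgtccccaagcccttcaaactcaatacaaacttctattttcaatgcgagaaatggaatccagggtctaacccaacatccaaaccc

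The genes were expressed at very different levels in WT ES cells. Levels are given as FPKM, fragment numbers divided by transcript length and library depth, which allows comparison between genes. From the mean of the 3 WT libraries the order was Slc38a4 at 35.1, Impact at 28.2, Plagl1 at 22.9, Zdbf2 at 13.6, Fkbp6 at 3.41, Trappc9 at 2.04, Peg13 at 0.82 and Inpp5f at 0.43 FPKM, followed by Cdh15 and Rasgrf1. The WT ranges of neighbours in this order did not overlap. Slc38a4, Impact, Plagl1 and Zdbf2 stood above 86.9% or more of the genes in the table. As estimated from low values of microRNA genes, 1 fragment on 1 kb was worth about 0.0170 to 0.0197 FPKM. By its RefSeq exon length, a gene such as Inpp5f then rests on roughly 99 to 138 fragments in each WT library.

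Of the 10 genes, 8 reached the mean of 0.1 FPKM that was required for a test, and Cdh15 and Rasgrf1 did not. Between WT and KO cells 6 of the 8 differed at an adjusted p under 0.05 (limma on log2 FPKM + 0.1), against 41.1% of the 14612 genes tested. Plagl1, Zdbf2, Impact and Fkbp6 were higher in KO cells, against 18.8% of all tested genes, and Inpp5f and Slc38a4 were lower, against 22.3%. The share over all genes includes chromosome 11, where none of the 10 genes lies and where the median log2 fold change was -0.47 with 70.1% of genes called, and chromosome 6, with 0.17 and 50.1%. With chromosome medians subtracted, 36.2% of all genes were called, and the 6 genes remained called. The KO libraries lay outside the WT range in 7 of the 8 genes, against 63.4% of tested genes. The median log2 fold change of the 8 genes was 0.44, with a median size of 0.71, compared with -0.01 and 0.25 over all tested genes. In bulk samples a change in the number of expressing cells and in RNA per cell cannot be told apart, and neither can a second active allele and a stronger first one, because the FPKM values are not split by parental copy.

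Zfp57 itself, the label check, was at 70.6 to 75.9 FPKM in WT and at 19.0 and 21.6 in KO libraries. The table does not separate exons, so which part of the gene the KO reads cover cannot be told. Of the 10 markers of pluripotent cells all were tested, 5 were higher in KO and none lower, with summed levels of 1093 to 1148 FPKM in WT and 1178 to 1261 in KO. Sums for primitive endoderm (0.77 to 0.93 in WT, 1.12 to 1.44 in KO), mesendoderm (1.5 to 1.76, 1.84 to 2.70), neural (11.7 to 13.9, 9.40 to 12.9), trophoblast (16.2 to 18.3, 14.2 to 16.1) and fibroblast feeder markers (0.34 to 0.36, 0.17 to 0.34) were low by comparison, and Col3a1 was at 0 in every library. In each of the first 4 of these lists 1 marker was higher in KO, 1 trophoblast marker was lower, and no fibroblast marker was called. Over all tested genes 18.8% were higher and 22.3% lower. The higher markers were Sox7, T, Sox1 and Eomes, with WT means of 0.12, 0.37, 0.087 and 0.50 FPKM. Their KO means were 0.69, 0.845, 0.57 and 2.265 FPKM. The neural and trophoblast sums came mostly from Tubb3 and from Tfap2c, the lower marker, with WT means of 11.7 and 16.4 FPKM. The part of these markers in the results was not tested.

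**Figure D3:**
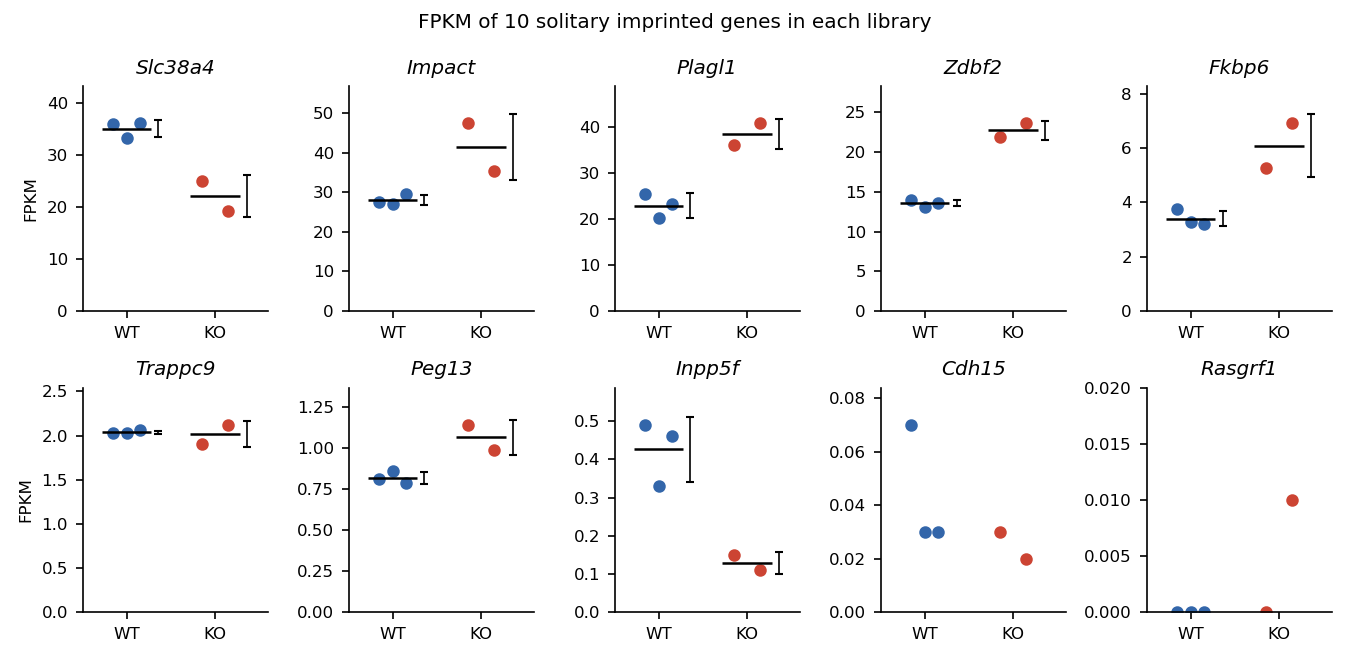
FPKM of the 10 genes in the 3 WT (blue) and 2 KO (red) libraries, on a linear axis from 0 for each gene, with the mean as a line and the SD as a bar for the 8 tested genes. The KO points lie above all WT points in Plagl1, Zdbf2, Impact, Fkbp6 and Peg13 and below them in Slc38a4 and Inpp5f, and overlap them in Trappc9 and Cdh15.

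Plagl1 encodes a zinc finger transcription factor, expressed from the paternal copy. Its FPKM was 25.3, 20.1 and 23.3 in WT and 36.1 and 40.7 in KO. The lowest KO value was above the highest WT value, and the log2 fold change was 0.75 (SE 0.10, adjusted p = 0.0027, limma), a fold of 1.68. Hymai, the noncoding RNA that starts just inside Plagl1 on the same strand, was at 1.93, 1.55 and 1.81 in WT and 2.12 and 2.22 in KO. The groups of Hymai did not overlap either, with a log2 fold change of 0.29 (95% interval 0.003 to 0.58, adjusted p = 0.097, limma), which did not pass the threshold. The level of Hymai was 0.0763 to 0.0778 of that of Plagl1 in WT libraries and 0.0588 and 0.0546 in KO libraries. The transcripts overlap on 1 strand, so reads of their shared stretch cannot be told apart.

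Zdbf2, paternally expressed, encodes a protein with a DBF4-type zinc finger, and its locus makes a long transcript from the distal start shown above. It was at 13.9, 13.1 and 13.7 FPKM in WT and at 21.9 and 23.6 in KO. All libraries of a group stood close together, and the log2 fold change of 0.74 had the smallest error of the called genes (SE 0.05, adjusted p = 4.4e-04, limma). The fold was 1.67. The nearest listed peak was 935744 bp away, but the study describes a weaker ZFP57 peak at the imprint named for Gpr1, which is this locus, below its threshold for listing, so Zdbf2 is not counted here as unbound. Gpr1, which overlaps the distal part of Zdbf2 on the other strand, was at 0 to 0.09 FPKM in all libraries and was not tested.

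Impact, paternally expressed in mouse, encodes an inhibitor of the kinase GCN2, which slows translation on amino acid shortage. It was at 27.6, 27.2 and 29.6 FPKM in WT and at 47.5 and 35.5 in KO. Both KO libraries lay above the WT range, and they differed from each other more than the WT libraries did. The log2 fold change was 0.54 (SE 0.12, adjusted p = 0.013, limma). It was 0.75 with KO replicate 1 alone and 0.34 with KO replicate 2 alone, and the call held in both cases.

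Fkbp6 encodes an immunophilin of male germ cells that is needed for meiosis. It was at 3.74, 3.28 and 3.20 FPKM in WT and at 5.28 and 6.91 in KO. The groups were apart, with a log2 fold change of 0.81 (SE 0.13, adjusted p = 0.0046, limma), the highest of the 8 genes and higher than in 95.2% of tested genes. Of 5 germ cell markers 4 could be tested. These, Ddx4, Dazl, Sycp3 and Mael, were all lower in KO, against 22.3% of all tested genes. The sum of the list was 15.5 to 19.1 FPKM in WT and 7.84 to 8.04 in KO. Whether the germ cell markers bear on the level of Fkbp6 was not tested.

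Inpp5f and Slc38a4 were the genes that fell. Inpp5f, a phosphoinositide phosphatase with a Sac domain, was at 0.49, 0.33 and 0.46 FPKM in WT and at 0.15 and 0.11 in KO. The highest KO value was under the lowest WT value, and the log2 fold change was -1.19 (SE 0.22, adjusted p = 0.0073, limma). On the FPKM scale without the added 0.1, the KO mean was 0.305 of the WT mean. This is the change of a weakly expressed gene, with about 31 to 40 fragments in the KO libraries, and the value covers the long and the short transcript together. The log2 fold change was -1.64 with 0.01 added and -0.33 with 1 added, and the gene was called in both cases.

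Slc38a4 encodes an amino acid transporter of the System A kind and is paternally expressed. It was at 36.04, 33.26 and 36.13 FPKM in WT and at 25.01 and 19.25 in KO, with no overlap. The log2 fold change was -0.68 (SE 0.11, adjusted p = 0.0046, limma), a KO level of 0.63 of that in WT. With its nearest peak 410855 bp away, it had no peak in either list within 50 kb. The study also detected no ZFP57 binding at the differentially methylated region of Slc38a4. It points to other work that gives H3K27me3 a role in the germline imprinting of this gene.

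**Figure D4:**
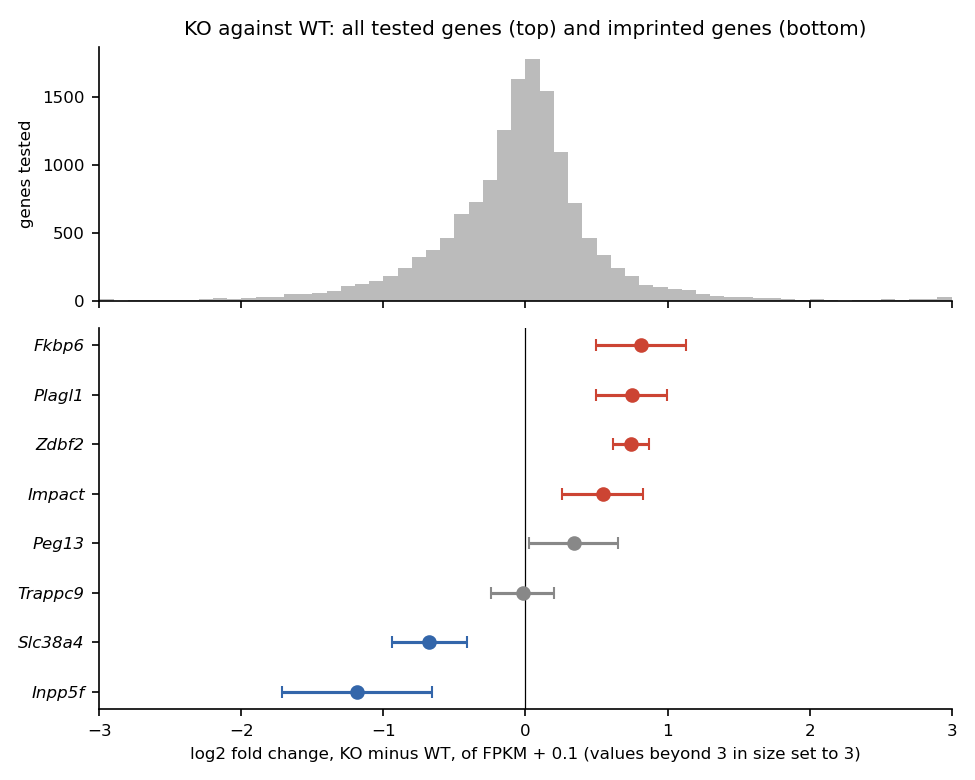
Log2 fold change, KO minus WT, on the scale of log2(FPKM + 0.1), as a histogram over the 14612 tested genes (top, values beyond 3 in size drawn at 3) and for the 8 tested imprinted genes with 95% intervals (bottom; red higher, blue lower, grey not called). The intervals of Fkbp6, Plagl1, Zdbf2 and Impact lie above 0, those of Slc38a4 and Inpp5f below, and that of Trappc9 spans 0.

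Peg13 and Trappc9 share a peak and did not pass the test. Peg13, a noncoding RNA expressed from the paternal copy, was at 0.81, 0.86 and 0.79 FPKM in WT and at 1.14 and 0.99 in KO. The groups did not overlap, and the log2 fold change of 0.34 had a 95% interval of 0.03 to 0.65 (adjusted p = 0.080, limma). The call depended on the variance model and the scaling, with an adjusted p of 0.034 from limma without a mean-variance trend and 0.040 after quantile normalization, in a range of 0.034 to 0.29 over 16 alternatives. Trappc9, a subunit of a TRAPP complex of vesicle transport, was at 2.03, 2.03 and 2.06 FPKM in WT and at 1.91 and 2.12 in KO. Here the groups overlapped, and the log2 fold change was -0.02 with a 95% interval of -0.24 to 0.20 (adjusted p = 0.89, limma). The ratio of Peg13 to Trappc9 was 0.383 to 0.424 in WT and 0.597 and 0.467 in KO. Both genes are on the - strand, so unspliced Trappc9 RNA is read as Peg13 too and the FPKM values cannot separate it.

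Cdh15 and Rasgrf1 were close to silent in all libraries. Cdh15, a cadherin of skeletal muscle (M-cadherin), was at 0.07, 0.03 and 0.03 FPKM in WT and at 0.03 and 0.02 in KO, and the groups overlapped. The peak over its exons was listed in cells with hardly any Cdh15 RNA. The muscle regulators Myod1, Myf5 and Myf6 were at 0 in every library, and the sum of 5 muscle markers was 0.57 to 0.92 FPKM in WT and 0.21 to 0.31 in KO, most of it from Des, the 1 marker tested, which was lower. Rasgrf1, a Ras exchange factor expressed from the paternal copy in brain, was listed at 0 in all 3 WT libraries and at 0 and 0.01 in the KO libraries. Without the filter on low values the log2 fold change was -0.19 for Cdh15 (adjusted p = 0.42, limma) and 0.07 for Rasgrf1 (adjusted p = 0.54, limma), so neither was called.

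Among the tested genes, the 6 with a listed peak at the gene included 3 that rose (Plagl1, Impact and Fkbp6), 1 that fell (Inpp5f) and 2 that were not called (Peg13 and Trappc9), where 18.8% of all tested genes were higher and 22.3% lower. Fkbp6, Plagl1 and Peg13 had a bound start and folds of 1.76, 1.68 and 1.26. Impact and Inpp5f, with a bound intron before an internal start, had folds of 1.46 and 0.44. With 8 genes these are descriptions and no test was made.

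The genes around the loci were counted in the same fit. Within 100 kb of the 10 genes lay 31 others, of which 26 were tested, 3 were higher in KO, 4 were lower and 19 were not called, so 26.9% were called against 41.1% of all genes. With chromosome medians subtracted, 9 of the 26 were called, against 36.2% of all genes, and the difference between neighbours and other genes was not tested. Their median log2 fold change was -0.0004 and the median size 0.13. At Plagl1 none of the 5 tested neighbours was called, and at Impact the 1 tested neighbour, Osbpl1a, was just outside the threshold (log2 fold change -0.16, adjusted p = 0.052, limma), with groups that did not overlap. It was called after either rescaling, with chromosome medians subtracted and with a mean of at least 1 FPKM required. At Zdbf2 the 1 called neighbour of 5 tested was Snora41, a small nucleolar RNA within the span of Eef1b2, with a log2 fold change of -0.22 (adjusted p = 0.022, limma).

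At Fkbp6, 3 of 7 tested neighbours passed. Trim50, a ubiquitin ligase gene whose start lies 3251 bp from Fkbp6 on the other strand, was at 0.04, 0.06 and 0.03 FPKM in WT and at 0.18 and 0.21 in KO. These levels rest on few fragments, though the groups were apart, and the log2 fold change was 1.04 (SE 0.22, adjusted p = 0.012, limma). Pom121, a nuclear pore gene, was higher by 0.18 on the log2 scale (adjusted p = 0.025, limma). Fzd9, a Wnt receptor gene, was at 0.79, 0.51 and 0.46 FPKM in WT and 0.17 and 0.24 in KO, with a log2 fold change of -1.15 (adjusted p = 0.014, limma).

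At the remaining loci 1 neighbour each passed, or none. Chrac1, a histone-fold gene 29208 bp from Trappc9, was at 5.32, 4.95 and 5.08 FPKM in WT and 6.96 and 6.83 in KO, a log2 fold change of 0.42 (SE 0.06, adjusted p = 0.0028, limma). Bag3, a co-chaperone gene 64384 bp from Inpp5f, fell by 0.67 on the log2 scale (SE 0.14, adjusted p = 0.010, limma), whereas Mcmbp, whose span lies 5 bp from that of Inpp5f, had a log2 fold change of 0.09 and was not called. Acsf3, a mitochondrial acyl-CoA synthetase gene near Cdh15, had -0.38 (adjusted p = 0.0497, limma), just inside the threshold. Morf4l1, the tested neighbour of Rasgrf1, had 0.01, and Slc38a4 had no other gene of the table within 100 kb. The number of called neighbours was 4 to 5 when any 1 library was left out (4 without WT replicate 1 or KO replicate 2), and Bag3 and Chrac1 were called each time.

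**Figure D5:**
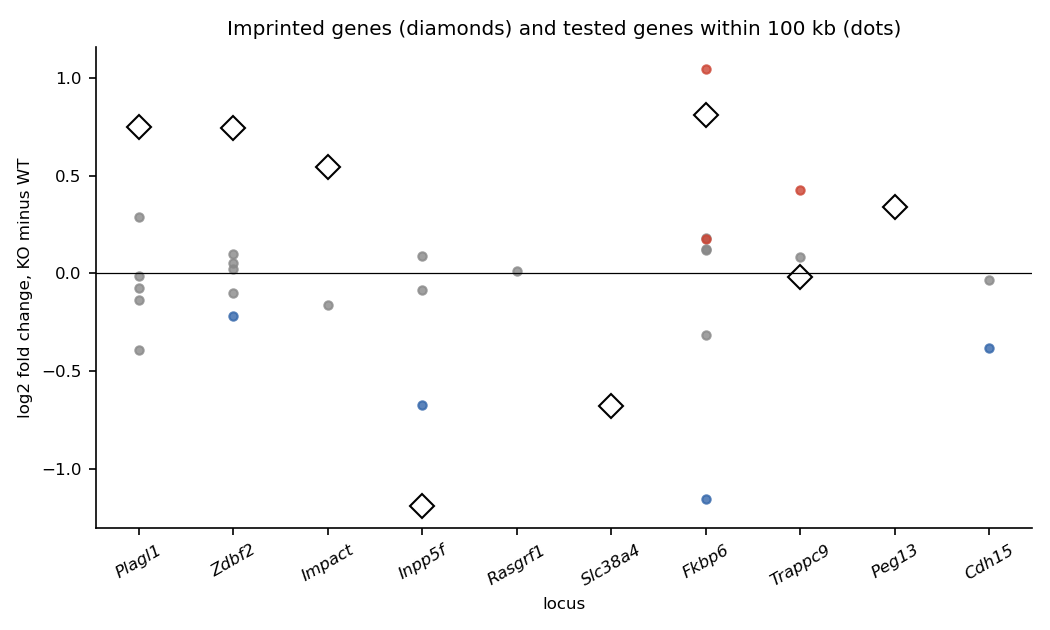
Log2 fold change, KO minus WT, of the tested imprinted genes (diamonds) and of the 26 tested genes within 100 kb of them (dots; red higher, blue lower, grey not called), by locus. Outside the Fkbp6 locus most dots lie close to 0, while 6 of the 8 diamonds lie beyond 0.5 in size.

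Genes that act with these genes or resemble them were counted from 8 lists with 81 symbols, of which 72 could be tested, 17 were higher in KO, 11 lower and 44 not called. The called share was 38.9%, near the 41.1% of all tested genes. The median log2 fold change of the 72 was 0.03. Of the GCN2 pathway around Impact, 4 of 5 entries were higher and none lower, where 18.8% of all tested genes were higher and 22.3% lower. Ddit3, a stress transcription factor downstream of GCN2, was at 2.33, 2.32 and 2.46 FPKM in WT and 4.02 and 6.74 in KO (log2 fold change 1.1, adjusted p = 0.0073, limma). Neither of the 2 tested relatives of Plagl1 was called. Of the 12 phosphatases related to Inpp5f, 4 were lower and none higher (33.3% called, against 41.1% of all tested genes), among them Inppl1 at 12.2 to 13.0 FPKM in WT and 5.99 and 5.61 in KO (log2 fold change -1.11, adjusted p = 3.2e-04, limma).

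The other families went in both directions, with 44.4% called in the Slc38 family, 35.7% in the FKBP family, 15.4% of TRAPP subunits, 44.4% of Ras exchange factors and targets and 62.5% of cadherins and catenins. Over all tested genes the share was 41.1%, with 18.8% higher and 22.3% lower, and each family holds few genes. In the Slc38 family 2 of 9 tested transporters were higher and 2 lower. In the FKBP family 3 of 14 were higher and 2 lower, with Fkbp11, an immunophilin of the secretory pathway, at 8.32 to 10.8 FPKM in WT and 3.84 and 1.55 in KO (log2 fold change -1.94, adjusted p = 0.0065, limma). Of 13 tested TRAPP subunits 1 was higher and 1 lower. Of 9 Ras exchange factors and targets 3 were higher and 1 lower. Of 8 tested cadherins and catenins 4 were higher and 1 lower, and P-cadherin (Cdh3) fell from 3.42 to 4.51 FPKM in WT to 1.25 and 0.73 in KO (log2 fold change -1.92, adjusted p = 0.0015, limma), while Cdh4 rose by 1.00 on the log2 scale (adjusted p = 0.015, limma).

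A list of 17 genes covered the upkeep of imprints and their marks, and also enzymes that remove DNA methylation. Of these genes 5 were higher, 5 lower and 7 not called, so 58.8% were called against 41.1% of all tested genes. Zfp57, the disrupted gene, is among the 5 lower. Besides Zfp57, the genes that moved by at least 1 on the log2 scale were Dnmt3a and Dppa3. Dnmt3a, a de novo DNA methyltransferase, was at 9.21 to 11.0 FPKM in WT and 3.25 and 2.84 in KO (log2 fold change -1.71, adjusted p = 3.3e-04, limma). Dppa3, which protects the maternal genome from demethylation in the zygote, was at 24.2 to 37.0 FPKM in WT and 9.04 and 4.43 in KO (log2 fold change -2.30, adjusted p = 0.0027, limma). Whether these changes bear on the imprinted genes was not tested.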

How the data were processed

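RNA-seq values were the FPKM table the authors deposited for 3 WT and 2 KO libraries, rounded to 2 decimals. ZFP57 peak positions (1-based, mm10) were those the authors deposited, without score or p-value, from at least 2 WT replicates. The submitters' processing notes name FastQC 0.11.5, Trim Galore 0.2.7, BWA 0.6.2, Picard, MACS2 2.1.0 and STAR 2.5.2, with no role given. The annotation behind FPKM is not given in the sources used here. Low values of microRNA genes were whole multiples of 1 fragment (tolerance 0.1) in 96.5 to 98.6% of cases, which implies about 50700000 to 58900000 fragments per library. Transcript lengths are not given, so counts were not recovered and no count test was run.

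The comparison used limma 3.58.1 in R 4.3.3 on log2(FPKM + 0.1), for genes averaging 0.1 FPKM or more (eBayes with trend, Benjamini-Hochberg adjustment over all 14612 genes, threshold 0.05), which understates the change of low genes. With 3 against 2 libraries an exact permutation test cannot go below 0.1. Separate lines are implied by the labels, but p-values measure only the spread between these samples. WT and KO libraries of the same number did not deviate together (correlation -0.07 and -0.04 over genes), so they were not paired.

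Peaks, starts and promoters were placed with RefSeq GRCm38 in Python 3.11.15 (numpy 2.4.6, pandas 2.3.3, matplotlib 3.10.9); 23192 genes matched by symbol and 1096 by a synonym, 13 matched more than 1 gene and 108 matched none. Spans use curated transcripts. The genes, the lists and the tests were chosen with earlier results of these data known. Named were the 10 genes, Zfp57, called genes within 100 kb or overlapping a span, and listed partner or imprint genes called with a log2 difference of 1 or more in size. Mcmbp, Morf4l1, Osbpl1a and the marker genes were named beyond this rule, after their values were seen. Alternatives covered the added constant, filters, scaling, variance model, thresholds, a replicate block, single libraries and windows. Spans with predicted models were added after seeing the data.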

Additional observations from a re-analysis of the deposited data

How the results depend on the processing

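The 6 calls among the imprinted genes and their directions held with 0.01 or 1 added to FPKM, without a filter, under both rescalings, with chromosome medians subtracted, under both other variance models and without any single library (6 calls in each of the 5 cases, where a lone KO library is assumed to vary like the WT libraries). With a mean of at least 1 FPKM Inpp5f was not tested. Under an adjusted p of 0.01 Impact was lost, and with a log2 size of at least 1 only 1 gene, Inpp5f, was called. The log2 fold change of Trappc9 changed sign, to 0.0085 under quantile normalization and, over single libraries left out, ranged from -0.090 to 0.053 (without KO replicate 1), never called. All genes called fell from 6002 to 3291 at 0.01, to 1172 with the size limit, and to 4146 to 4831 without 1 library. Called neighbours were 7, and 4 without a variance trend, 1 at 0.01, 2 with the size limit, 14 within 200 kb, and 4 to 5 without 1 library. With the replicate number as a block, 3012 genes, all 6 imprinted genes and 3 neighbours (2 of the 7) were called. Peak counts of 5 to 8 were within 1.5 times of the 7 under each window, and 6 of the 9 nearest peaks had at least 2 copies. Depth limits Rasgrf1, Cdh15 and Inpp5f, and the number of KO libraries limits all errors.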
